A study of Mus musculus with 6 samples.

Results

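Cadherins are calcium-dependent adhesion proteins, and the genes described here are those measured under a numbered Cdh symbol or a Pcdh symbol. A gene entered when at least 1 probe set of the array carried its symbol and no other. These were 56 of the 18193 genes measured that way. Where a gene had several such probe sets, the one that was brightest on average across the arrays was read. They comprised 5 classical type I cadherins, 11 type II cadherins, 5 other Cdh genes, 4 delta-1 protocadherins, 5 delta-2 protocadherins, 3 other non-clustered protocadherins and 23 clustered protocadherins. Of the clustered genes, 22 belonged to the beta cluster and 1, Pcdhgc4, to the gamma cluster.

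Corticothalamic projection neurons, deep-layer cortical neurons whose axons run to the thalamus, were profiled from C57BL/6 mice on 6 microarrays. Green fluorescent microspheres placed in the thalamus labelled the neurons through their axons, and fluorescence then served to sort them from dissociated cortex. Injection was at E17.5 for the E18 group (cortex collected at E18.5), at P1 for the P3 group and at P4 for the P6 group, and each group had 2 arrays. All groups shared strain and labelling method, with no transgene and no control group, and labelling lasted 1 day at E18 against 2 days later, so E18 stood apart by labelling time too and the effects of stage and labelling time cannot be told apart. Nothing in the labels ties arrays of the same stage to different mice or different sorts. The p-values therefore measure only the spread between these arrays, which may be technical.

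Classical cadherins hold cells together by binding like molecules on the neighbouring cell, and their cytoplasmic tails bind catenins that connect to actin. Type II cadherins are known for patterns that differ between cortical areas, layers and projection classes. Non-clustered delta protocadherins act in axon sorting, cell adhesion and actin remodelling. Clustered protocadherins are chosen in different combinations by single neurons and are known for self-recognition of neurites.

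The array groups differed in more than stage labels. The mean log2 level of the markers of corticothalamic neurons was 8.41 to 8.48 on the E18 arrays and 10.04 to 10.73 on the P3 and P6 arrays, and 9 of 10 of these genes were called higher at P3 and 9 of 10 at P6. Pan-neuronal markers stood at 9.88 to 9.93 at E18 and 11.71 to 11.95 later, and 4 of 5 were higher at both stages. The list of proliferation genes went the other way, from 12.44 to 12.52 at E18 to 6.36 to 6.61 later, with 4 of 4 tested genes lower at both stages. Markers of radial glia and progenitors stood at 10.59 to 10.60 at E18 and 6.30 to 6.62 later, and 6 of 8 were lower at both stages. Astrocyte markers stood at 10.12 to 10.14 at E18, 6.78 to 7.15 at P3 and 7.68 to 8.35 at P6. Microglial markers stood at 9.36 to 9.37, 6.75 to 7.63 and 7.22 to 8.98, and 4 of 5 tested genes were lower at P3 and 0 at P6. Upper-layer and callosal markers stood at 9.04 to 9.07 at E18 and 7.41 to 7.91 later, but did not move alike. Of 5 tested genes, 1 was higher and 2 lower at P3, with changes from -5.51 to 1.48, and 0 were higher and 3 lower at P6. Endothelial markers differed less, from 6.70 to 6.73 at E18 to 6.20 to 6.45 later, and the endothelial cadherin Cdh5 stayed between 4.95 and 5.33 on every array. The part of these cell types in the members' changes from E18 was not tested. In sorted pools, fewer cells of a type and less RNA per cell cannot be told apart. The E18 arrays correlated at 0.998 over all probe sets, the P6 arrays at 0.976 and the P3 arrays at 0.961. Members more than 2-fold apart between the arrays of a stage numbered 0 at E18, 6 at P3 and 4 at P6.

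Of the 56 genes, 42 passed a filter that left out the 25% of genes with the lowest means. The fit of limma over all 13645 genes kept then called a gene at a Benjamini-Hochberg adjusted p under 0.05. From E18 to P3, 16 members were higher and 4 lower. Over all genes tested 15.5% were higher and 25.7% lower, 41.3% in either direction. The members' median change was 0.70 on the log2 scale, against -0.13 for all genes tested. From E18 to P6, 16 members were higher and 4 lower, against 14.8% and 16.9% of all genes, 31.7% in either direction. The median change was 0.56 for the members and 0.08 for all genes. The moderated F-test over the 3 stages called 19 members, and 38.7% of all genes. Quantile normalization of the deposited columns moved the median of all genes from -0.13 to 0.09 between E18 and P3. It gave 2880 genes higher and 2785 lower, where the deposited scale gave 2116 and 3513. On that scale 17 members were higher and 3 lower.

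The filter favoured genes that were high at some stage. The E18 mean of 7 tested members (Cdh9, Cdh15, Pcdh1, Pcdhb2, Pcdhb5, Pcdhb12 and Pcdhb22) lay below the lowest mean kept, 5.97. Of these, 4 were higher at P3 and 5 at P6. With all 18193 genes fitted and no filter, 21 of 56 members were higher at P3 (37.5%) and 4 lower, against 15.4% higher and 20% lower over all genes. From E18 to P6 the unfiltered fit gave 17 higher and 4 lower, against 11.6% and 13.3% of all genes. The 14 untested genes were Cdh1, Cdh5, Cdh18, Cdh19, Cdh26, Pcdh12, Pcdh15 and 7 beta genes, with values of 3.72 to 6.20 on every array. Among them the unfiltered fit called Pcdh15, Pcdhb1, Pcdhb10, Pcdhb14 and Pcdhb18 higher at P3 and 1, Pcdhb14, higher at P6.

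**Figure D1:**
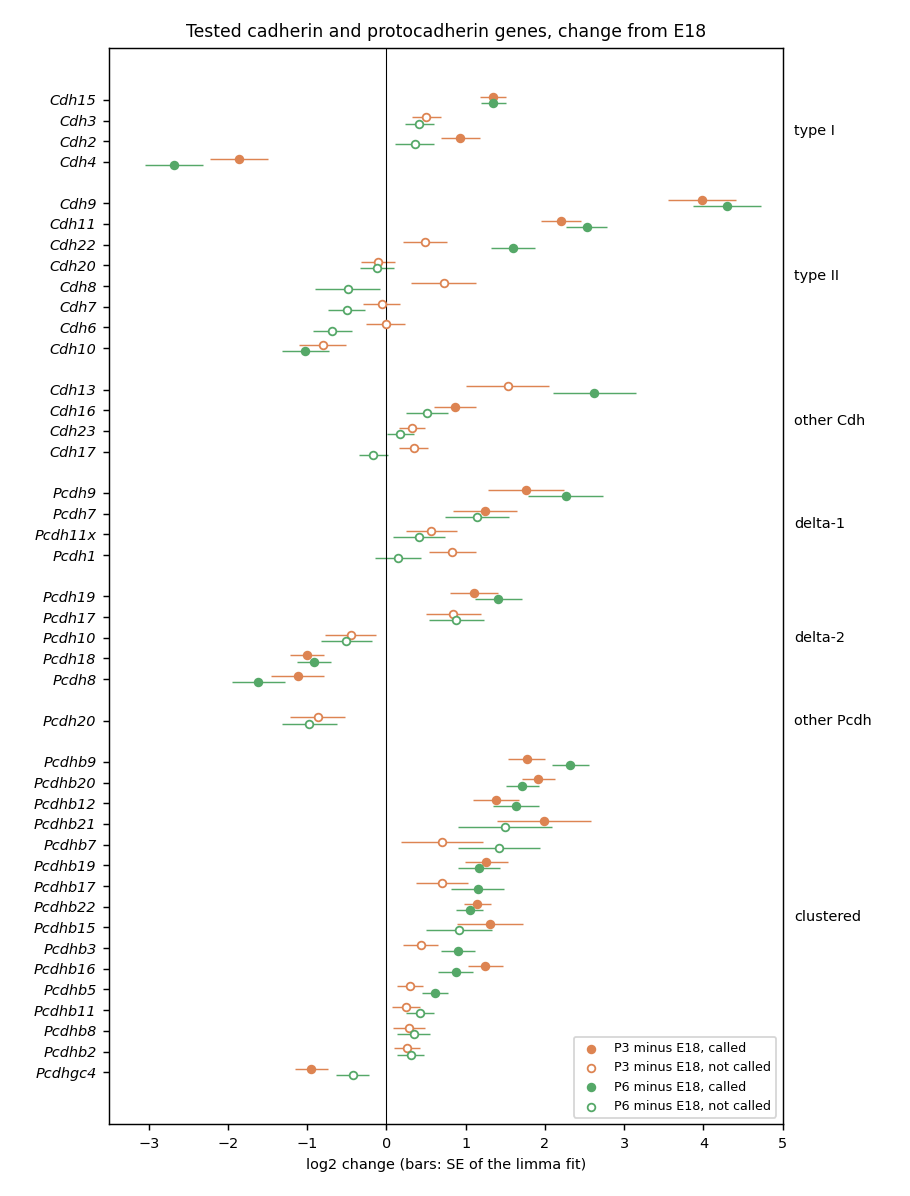
Log2 change of each of the 42 tested genes from E18 to P3 and from E18 to P6, with the SE of the limma fit as bars, grouped by class. Filled points are called at an adjusted p under 0.05. Cdh9 lies farthest to the right, at 3.98 and 4.29, and Cdh4 farthest to the left, at -1.86 and -2.68.

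Promoter sequence is shown for 4 genes on which the results turn, from RefSeq windows of 250 bases before to 50 bases after the annotated start (build GRCm38.p6). Cdh9 is the member with the largest rise, and Pcdh19, Pcdh8 and Pcdh18 are the delta-2 protocadherins called at both later stages, 1 upward and 2 downward. Capitals mark CpG dinucleotides and, in Pcdh8, the TATA box as well. The Cdh9 window is chr15:16728665-16728964 on the plus strand, with 8 CpG and a GC content of 48.7%.
Cdh9: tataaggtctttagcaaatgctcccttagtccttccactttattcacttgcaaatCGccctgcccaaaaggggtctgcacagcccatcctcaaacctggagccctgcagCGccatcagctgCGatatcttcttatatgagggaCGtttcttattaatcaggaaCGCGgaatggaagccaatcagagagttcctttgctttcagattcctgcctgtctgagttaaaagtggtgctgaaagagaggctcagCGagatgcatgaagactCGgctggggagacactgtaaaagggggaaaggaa
The Pcdh19 window is chrX:133688944-133689243 on the minus strand, with 18 CpG and 67.7% GC.
Pcdh19: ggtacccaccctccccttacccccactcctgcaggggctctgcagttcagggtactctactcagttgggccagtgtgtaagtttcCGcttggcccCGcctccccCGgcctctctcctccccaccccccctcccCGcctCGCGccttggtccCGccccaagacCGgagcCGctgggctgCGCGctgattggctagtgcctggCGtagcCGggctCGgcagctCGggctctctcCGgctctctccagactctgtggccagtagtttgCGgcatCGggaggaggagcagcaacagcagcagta
The Pcdh8 window is chr14:79771263-79771562 on the minus strand, with 14 CpG and 54.3% GC.
Pcdh8: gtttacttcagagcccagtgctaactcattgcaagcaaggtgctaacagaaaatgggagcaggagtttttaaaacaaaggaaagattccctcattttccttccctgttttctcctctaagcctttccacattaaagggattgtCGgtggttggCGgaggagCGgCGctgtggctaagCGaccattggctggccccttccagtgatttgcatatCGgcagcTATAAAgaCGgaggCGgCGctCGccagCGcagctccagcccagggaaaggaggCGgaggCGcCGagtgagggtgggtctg
The Pcdh18 window is chr3:49757267-49757566 on the minus strand, with 23 CpG and 63.0% GC.
Pcdh18: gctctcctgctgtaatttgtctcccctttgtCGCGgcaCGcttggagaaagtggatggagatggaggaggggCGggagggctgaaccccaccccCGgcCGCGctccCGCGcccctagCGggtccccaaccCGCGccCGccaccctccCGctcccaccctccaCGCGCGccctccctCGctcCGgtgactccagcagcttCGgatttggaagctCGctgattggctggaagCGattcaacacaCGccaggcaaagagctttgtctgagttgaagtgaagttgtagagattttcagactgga

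RefSeq windows were found for 20 of the 56 genes, 23 windows in all. Their median CpG count was 14, against 7 over all 32851 windows, and their median GC content was 60.3% against 52.7%. The window of Cdh9 therefore held fewer CpG than the median member, and that of Pcdh18 more. The motifs searched, on both strands, were an E-box, a T-box half-site and a TATA box, and none contains another. The E-box CAGATG, a site of proneural factors, was in 1 of the 23 windows and in 17.2% of all windows. The T-box half-site GGTGTGA was in 1 and in 3.98%. Both matches lay in a window of Cdh7. The TATA box TATAAA was in 2, those of Pcdh8 and Pcdh15, and in 13.6% of all windows. These matches describe letters in the window only.

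Among the classical type I cadherins, Cdh4 fell and Cdh15 rose, and N-cadherin gave a different answer from each of its probe sets. The 4 tested genes of this class had 2 called higher (50%) and 1 lower (25%) at P3, and 1 higher and 1 lower (25% each) at P6. All genes tested gave 15.5% higher and 25.7% lower at P3, then 14.8% and 16.9% at P6. Cdh4 (R-cadherin), which acts in axon growth and binds N-cadherin as well as itself, read 10.57 and 10.61 at E18. Its values were 9.25 and 8.21 at P3, then 8.12 and 7.71 at P6. Both E18 arrays were above every later array. The fall was 1.86 ± 0.37 (SE, n = 2 per stage) on the log2 scale at P3 (limma adjusted p = 0.00732). At P6 it was 2.68 ± 0.37, or 6.40-fold (limma adjusted p = 0.00147). A second probe set fell by 3.02 from E18 to P3, and the remaining one stayed at 4.53 to 4.84 on every array.

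Cdh15 (M-cadherin), best known from muscle, read 5.56 and 5.48 at E18, 6.95 and 6.78 at P3 and, at P6, 6.83 and 6.90. The stages did not overlap between E18 and either later stage. Its level was 2.54-fold higher at P3 (limma adjusted p = 0.000789) and 2.55-fold higher at P6 (adjusted p = 0.000704). Its E18 values lie near the low end of the arrays, where background compresses a fold. Cdh2 (N-cadherin), the main classical cadherin of neural tissue, read 10.58 and 10.73 at E18, 11.73 and 11.45 at P3, then 11.23 and 10.79 at P6. The P3 arrays were the highest, and those of P6 overlapped none of E18. Its level was higher at P3 by 0.93 ± 0.25 (limma adjusted p = 0.022), and the P6 difference from E18 was 0.36 (adjusted p = 0.302). Its other probe set read 10.66 and 10.58 at E18, 10.21 and 9.86 at P3 and, at P6, 10.33 and 9.42, in the opposite direction. The P3 call was also lost without E18 replicate 1 (adjusted p = 0.187) or E18 replicate 2 (0.135), so these data give Cdh2 no settled direction. Cdh3 (P-cadherin) was not called at either stage, with changes of 0.50 and 0.41. A dimmer probe set of Cdh3 read 4.81 and 4.46 at E18. It was higher at P3 by 0.63 (adjusted p = 0.0465 in the limma fit of all probe sets) and not called at P6. Cdh1 (E-cadherin) stayed between 4.04 and 4.19.

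The type II cadherins split by gene, and Cdh9 and Cdh11 made the largest rises. Of 8 tested genes, 2 were higher (25%) and 0 lower at P3, and 3 were higher (37.5%) and 1 lower (12.5%) at P6. Over all genes tested, 15.5% were higher and 25.7% lower at P3, and 14.8% and 16.9% at P6. The class medians were 0.24 and -0.31, so the rises were not shared by the class. Cdh9, a type II cadherin known from synapse-specific adhesion in the hippocampus, read 5.79 and 5.36 at E18, below the lowest gene mean tested. At P3 it read 10.19 and 8.91, and at P6 it read 9.61 and 10.12. The later arrays all exceeded the higher E18 array by more than 3 log2 units. Its change was 3.98 ± 0.43 at P3, or 15.8-fold (limma adjusted p = 0.000533), and 4.29 ± 0.43 at P6, or 19.6-fold (adjusted p = 0.000349). The P3 change stayed called at 3.34 without P3 replicate 1 and 4.62 without P3 replicate 2.

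Cdh11, which acts in neurite growth and synapse formation, read 7.98 and 8.01 at E18, 10.42 and 9.98 at P3, then 10.45 and 10.59 at P6. It was 4.60-fold higher at P3 (limma adjusted p = 0.00074) and 5.76-fold higher at P6 (adjusted p = 0.000361). A second probe set of Cdh11 started lower, at 5.50 and 5.07, and rose by 3.91 and 3.30. Cdh22 read 6.58 and 6.43 at E18, 7.05 and 6.93 at P3 and, at P6, 8.51 and 7.69. Its P3 change was 0.48 (limma adjusted p = 0.194), and it was 3.02-fold higher at P6 (adjusted p = 0.00455). Its difference of 1.11 between P3 and P6 was not called (adjusted p = 0.134).

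Cdh10, as read by its chosen probe set, moved the other way from its neighbour Cdh9. It read 8.99 and 9.13 at E18, 8.49 and 8.02 at P3, then 7.73 and 8.34 at P6, lower than E18 on all 4 later arrays. Its change was -0.81 at P3 (limma adjusted p = 0.0621) and -1.03 at P6 (adjusted p = 0.0343). The P3 change was -1.04 and called without P3 replicate 1 (0.0358). The P6 call was lost without E18 replicate 1 (adjusted p = 0.146), E18 replicate 2 (0.218) or P6 replicate 1 (0.163). Of the other 3 probe sets of Cdh10, 1 changed by -0.75 at P3 and -0.78 at P6. Another changed by 0.55 and -0.17, and the last by 0.69 and 0.12. The P3 rise of the last was called in the limma fit of all probe sets (adjusted p = 0.0486), so the probe sets differ in direction at P3. Cdh6, whose level marks areas and layers of the developing cortex, read 9.18 and 9.18 at E18, 9.19 and 9.14 at P3 and, at P6, 8.70 and 8.29. Its P6 change was -0.69 and not called (limma adjusted p = 0.0723). Cdh8 read 7.76 and 7.59 at E18, 8.08 and 8.71 at P3, then 6.56 and 7.80 at P6. The P6 arrays lay on both sides of E18, and neither change was called (adjusted p = 0.189 and 0.387 in limma). The other probe sets of Cdh8 were dimmer, at 5.58 and 5.45 in one and 4.63 and 4.48 in another at E18. They were called higher at P3, by 0.89 and 0.65, and not at P6 (P3 adjusted p = 0.0434 and 0.0172 in the limma fit of all probe sets). Cdh7 and Cdh20 changed by -0.50 to -0.06 and were not called. In the limma fit of all probe sets, another probe set of Cdh7, at 6.12 and 6.11 at E18, was lower at P6 by 1.02 (adjusted p = 0.028). One near the array floor, at 3.92 and 3.90, was higher at P3 by 0.55 (0.0243). Cdh18 and Cdh19 were untested, with values of 3.72 to 4.36.

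Cdh6, Cdh9 and Cdh10 follow one another on chromosome 15 with 0 protein-coding genes between them in the RefSeq order, and Cdh8, Cdh11 and Cdh5 do so on chromosome 8. The neighbours did not move together here. On chromosome 15 the changes from E18 to P6 were -0.69, 4.29 and -1.03 in that order. On chromosome 8 Cdh8 changed by -0.49, Cdh11 by 2.53, and Cdh5 was near the array floor.

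**Figure D2:**
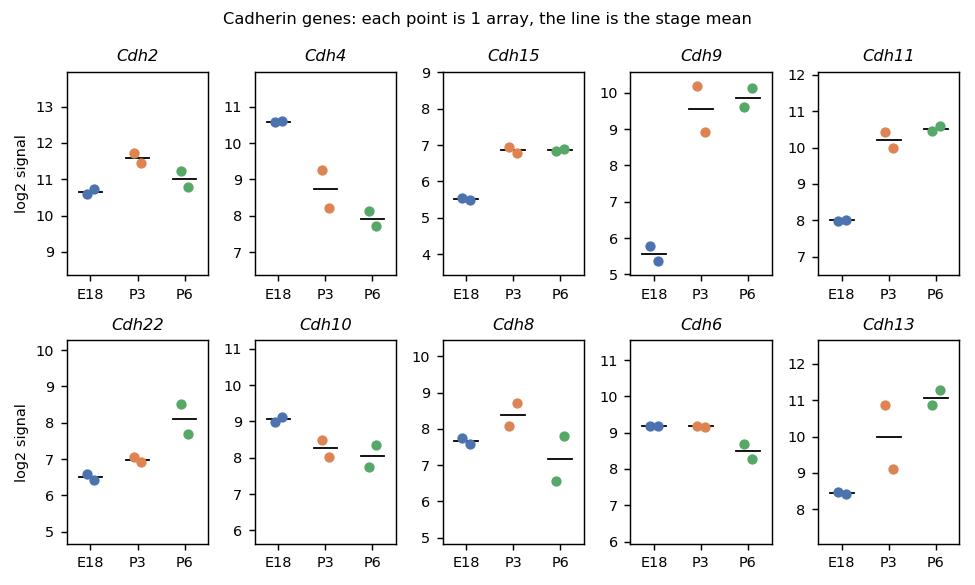
Log2 signal of 10 cadherin genes on each array (points) with the stage mean (line), each panel on its own vertical axis. Cdh9, Cdh11 and Cdh13 rise from E18, Cdh4 falls, and the P6 arrays of Cdh8 are 6.56 and 7.80.

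Of the other Cdh genes, Cdh13 made the largest change. Cdh13 (T-cadherin) is anchored in the membrane by a lipid and lacks the catenin-binding tail. It read 8.47 and 8.43 at E18, 10.86 and 9.10 at P3 and, at P6, 10.87 and 11.27. Both P6 arrays and 1 P3 array stood more than 2 log2 units above E18. The P3 change was 1.53 ± 0.52 (limma adjusted p = 0.0507), and without P3 replicate 2 it was 2.41 (adjusted p = 0.00257). At P6 it was 6.16-fold higher (adjusted p = 0.0078), a call lost without P6 replicate 1 (adjusted p = 0.06) or P6 replicate 2 (0.0756). Another probe set of Cdh13 with a similar E18 level, 8.48 and 8.46, rose by 1.49 at P3 and 2.19 at P6. Both rises were called in the limma fit of all probe sets (adjusted p = 0.00774 and 0.00158). A dimmer probe set, at 4.41 on both E18 arrays, rose by 1.16 and 1.57 in that limma fit (adjusted p = 0.0383 and 0.0147). The last, at 4.31 and 4.25 at E18, was called at neither stage. Cdh16, known from kidney, read 6.05 and 5.93 at E18, 6.45 and 7.27 at P3, then 6.55 and 6.44 at P6. It was higher at P3 by 0.87 (limma adjusted p = 0.0358), but 0.46 without P3 replicate 2, and this call was lost without any 1 of the arrays except P3 replicate 1 (adjusted p = 0.0651 to 0.152). Cdh17 and Cdh23, an intestinal cadherin and a hair-cell cadherin, changed by -0.17 to 0.34 from E18 and were not called. Without P3 replicate 1 the P3 change of Cdh17 was 0.55. The P6 change of Cdh16, 0.51, was not called (adjusted p = 0.185 in limma).

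The 4 delta-1 protocadherins had a median change of 1.04 at P3 and 0.77 at P6, and none was lower at a called level. Called higher were 2 (50%) at P3 and 1 (25%) at P6. Among all genes 15.5% were higher and 25.7% lower at P3, and 14.8% and 16.9% at P6. Pcdh9 read 8.79 and 8.86 at E18, 10.94 and 10.24 at P3 and, at P6, 10.36 and 11.81. All later arrays were above both E18 arrays. It was 3.40-fold higher at P3 (limma adjusted p = 0.0238) and 4.79-fold higher at P6 (adjusted p = 0.00994). The P6 change was 2.26 on the log2 scale, and it stayed called at 2.99 without P6 replicate 1 and 1.53 without P6 replicate 2. The P3 call missed the threshold without E18 replicate 1 (0.0637), E18 replicate 2 (0.0591), P3 replicate 1 (0.103) or P3 replicate 2 (0.052). A second Pcdh9 probe set rose more, from 7.98 and 8.05 at E18 by 2.69 at P3 and 3.08 at P6.

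Pcdh7, which helps guide axons and binds phosphatase 1 with its tail, read 8.22 and 8.35 at E18, 10.18 and 8.88 at P3, then 9.36 and 9.49 at P6. No later array overlapped E18. Its change was 1.24 ± 0.41 at P3 (limma adjusted p = 0.045) and 1.14 at P6 (adjusted p = 0.0717). The P3 value was 0.60 without P3 replicate 1 and 1.89 without P3 replicate 2. The P3 call ended without E18 replicate 1, E18 replicate 2, P6 replicate 1 or P6 replicate 2. Pcdh1 read 6.00 and 5.91 at E18, 6.31 and 7.27 at P3 and, at P6, 6.04 and 6.17, and Pcdh11x stayed between 6.04 and 7.02. Neither was called at either stage, and without P3 replicate 1 the P3 change of Pcdh1 was 1.31. Another probe set of Pcdh11x read 5.50 and 6.00 at E18. It was higher at P3 by 0.94 (adjusted p = 0.0445 in the limma fit of all probe sets) and not called at P6. Pcdh1 and Pcdh11x were highest on P3 replicate 2, the array with the highest signal of the 18S ribosomal RNA control probe sets, 14.2 against 11.3 to 13.9 on the others; its part in these values was not tested.

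The delta-2 protocadherins, whose tails bind the WAVE actin regulator, did not move as a group. Of the 5 genes, 1 was higher (20%) and 2 were lower (40%) at both later stages, with class medians of -0.45 and -0.51. The shares of all genes were 15.5% higher and 25.7% lower at P3, and 14.8% and 16.9% at P6. Pcdh8 (arcadlin), which drives removal of cadherins from synapses and is expressed in early cortex, read 11.72 and 11.71 at E18. It read 10.38 and 10.81 at P3, then 10.55 and 9.65 at P6. All later arrays were below both E18 arrays. It fell by 1.12 on the log2 scale at P3 (limma adjusted p = 0.0334) and by 1.62 at P6 (adjusted p = 0.00914). The P3 call was lost when any 1 of the E18 or P3 arrays was left out, with adjusted p of 0.0532 to 0.151. The name of the chosen probe set marks probes that may match other genes. Its second probe set has no such mark, read 10.60 and 10.67 at E18 and fell by 2.42 at P3 and 2.25 at P6.

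Pcdh18 read 8.48 and 8.60 at E18, 7.60 and 7.48 at P3 and, at P6, 7.78 and 7.47. It was 2.0-fold lower at P3 (limma adjusted p = 0.0105) and 1.88-fold lower at P6 (adjusted p = 0.0166). Both calls were lost without E18 replicate 1 (adjusted p = 0.087 and 0.132) or E18 replicate 2 (0.128 and 0.194), and that at P6 without P6 replicate 2 (0.0571). Of its other probe sets, 1 fell by 0.74 at P3 and by 1.20 at P6, and the last changed by 0.34 and -0.15. Pcdh18 lies 1 protein-coding gene from Pcdh10 on chromosome 3.

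Pcdh19, an X-linked gene mutated in a form of epilepsy, read 9.62 and 9.68 at E18, 11.13 and 10.38 at P3, then 11.19 and 10.93 at P6. The later arrays did not overlap E18. It was 2.15-fold higher at P3 (limma adjusted p = 0.024) and 2.66-fold higher at P6 (adjusted p = 0.01). Both calls were lost without E18 replicate 1 (0.142 and 0.0719) or E18 replicate 2 (0.131 and 0.0619), and the P6 call without P6 replicate 1 (0.0801); the P3 value was 0.73 without P3 replicate 1. All 3 probe sets of Pcdh19 rose, by 0.94, 1.10 and 2.10 at P3 and by 0.95, 1.41 and 1.36 at P6.

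Pcdh10, which acts in axon pathways between cortex and thalamus, read 9.53 and 9.66 at E18, 9.59 and 8.70 at P3 and, at P6, 9.15 and 9.03. Its changes were -0.45 and -0.51 (limma adjusted p = 0.285 and 0.272). Without P3 replicate 1 the P3 change was -0.90. Its 6 probe sets did not move alike between E18 and P3, from -1.77 in one that read 9.43 and 9.51 at E18 to 0.94 in one that read 5.91 and 6.20. In the limma fit of all probe sets, the first was lower at P3 and, by 1.40, at P6 (adjusted p = 0.00469 and 0.0119). Another, whose name marks probes that may match other genes, fell by 1.01 and 1.32 (0.0206 and 0.0076). The one that rose was called at P3 only (0.0378), and the rest at neither stage. Pcdh17, which acts in presynaptic assembly, read 8.67 and 8.70 at E18, 9.93 and 9.13 at P3, then 9.26 and 9.88 at P6. Its changes of 0.84 and 0.88 were not called (adjusted p = 0.0862 and 0.0941 in limma), although no later array overlapped E18. Its other probe set changed by -0.27 at P3 and 0.60 at P6, so the probe sets differ in direction at P3. The P3 change of the chosen one was 1.24 without P3 replicate 2. Among other non-clustered genes, Pcdh20 read 7.06 and 7.24 at E18, 6.78 and 5.78 at P3 and, at P6, 5.85 and 6.51. It was lower than E18 on all 4 later arrays, by 0.87 and 0.97 on average, and not called (limma adjusted p = 0.0822 and 0.0735). The P3 change was -1.37 without P3 replicate 1. Pcdh20 and Pcdh9 are neighbours on chromosome 14, and their P6 changes were -0.97 and 2.26.

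**Figure D3:**
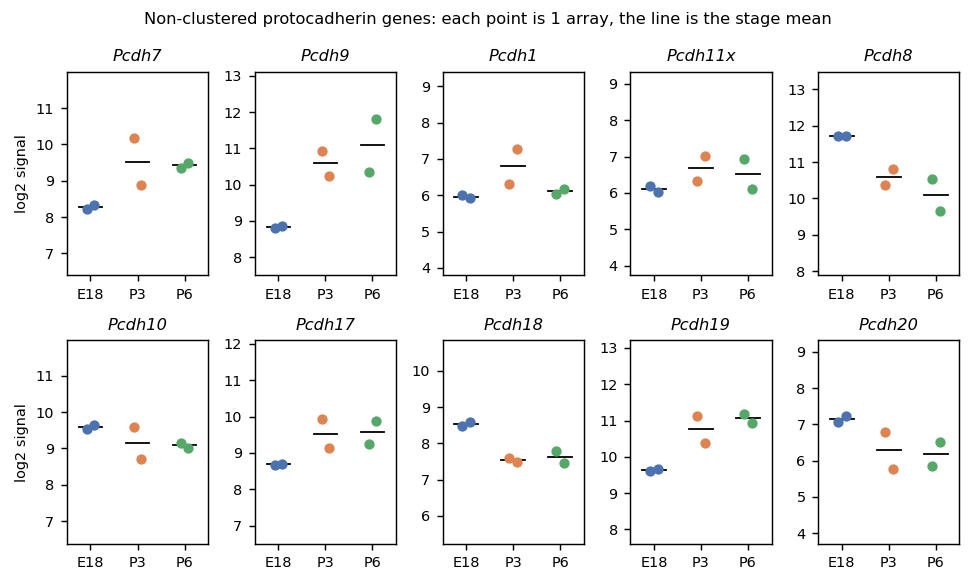
Log2 signal of 10 non-clustered protocadherin genes on each array (points) with the stage mean (line), each panel on its own vertical axis. The 4 later arrays of Pcdh9 and Pcdh19 lie above both E18 arrays and those of Pcdh8 and Pcdh18 below them, while Pcdh10 and Pcdh11x each have a later array within the E18 range.

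The clustered protocadherins were the class with the most tested genes, and every call in the beta cluster was upward. Of 16 tested genes, 8 were higher (50%) and 1 lower (6.25%) at P3, with a median of 0.93. At P6, 9 were higher (56.25%) and 0 lower, with a median of 0.98. For all genes the shares were 15.5% higher and 25.7% lower at P3, and 14.8% and 16.9% at P6. Beta protocadherin genes are single exons with similar sequences, each with its own promoter, so a probe set can also read related copies. Pcdhb20 read 6.88 and 7.02 at E18, 8.92 and 8.82 at P3, then 8.64 and 8.69 at P6. Its later arrays were close together and all far above E18. It was 3.78-fold higher at P3 (limma adjusted p = 0.000551) and 3.28-fold higher at P6 (adjusted p = 0.00085). Pcdhb9 read 6.53 and 6.58 at E18, 8.23 and 8.41 at P3 and, at P6, 8.65 and 9.10. It was 3.41-fold higher at P3 (limma adjusted p = 0.00135) and 4.99-fold higher at P6 (adjusted p = 0.000364). Pcdhb12 read 5.68 and 5.89 at E18, 7.58 and 6.76 at P3, then 7.23 and 7.61 at P6. It was 2.61-fold higher at P3 and 3.11-fold higher at P6 (limma adjusted p = 0.00936 and 0.00476).

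Pcdhb21 read 7.54 and 7.39 at E18, 10.05 and 8.84 at P3 and, at P6, 8.10 and 9.82. Its P6 arrays were 1.71 log2 units apart, the widest gap of any member at that stage. It was 3.96-fold higher at P3 (limma adjusted p = 0.0331), a call lost without E18 replicate 1 (0.0555), E18 replicate 2 (0.0777) or P3 replicate 1 (0.155). Its log2 change at P3 was 1.98, but 1.38 without P3 replicate 1 and 2.59 without P3 replicate 2. Its 2.82-fold difference at P6 was not called (adjusted p = 0.0954), except without P6 replicate 1 (a log2 change of 2.35, adjusted p = 0.0415). A dimmer probe set of Pcdhb21, at 4.22 and 4.27 on the E18 arrays, was higher by 1.56 at P3 and by 1.89 at P6 (adjusted p = 0.00132 and 0.000571 in the limma fit of all probe sets). Pcdhb19 read 6.47 and 6.50 at E18, 8.11 and 7.38 at P3, then 7.55 and 7.76 at P6. It was 2.40-fold higher at P3 (adjusted p = 0.00946 in limma) and 2.25-fold higher at P6 (adjusted p = 0.0137), and both calls were lost without E18 replicate 1 (0.0545 and 0.0795) or E18 replicate 2 (0.0525 and 0.0737). The P6 call was also lost without P6 replicate 1 (0.0599) or P6 replicate 2 (0.0808). Pcdhb17 read 7.02 and 7.04 at E18, 8.19 and 7.26 at P3 and, at P6, 7.96 and 8.39, a P6 rise of 2.22-fold (limma adjusted p = 0.0337) whose call was lost without E18 replicate 1 (0.127), E18 replicate 2 (0.123), P6 replicate 1 (0.086) or P6 replicate 2 (0.161). Without P3 replicate 2 its P3 change was 1.17 in place of 0.70 and was called (adjusted p = 0.0202).

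Pcdhb22 rose by 1.15 at P3 and 1.05 at P6 (adjusted p = 0.00216 and 0.0031 in limma), from an E18 mean below the lowest gene mean tested. Pcdhb16 rose by 1.25 and 0.87 (adjusted p = 0.00487 and 0.0222), and its P6 call was lost without E18 replicate 1 (0.132), E18 replicate 2 (0.184) or P6 replicate 2 (0.0906). Pcdhb15 rose by 1.31 at P3 (limma adjusted p = 0.0414), a call lost without any 1 of the E18 or P3 arrays. Its P6 change was 0.92 and not called (adjusted p = 0.137 in limma), and it was 1.57 without P6 replicate 1. The name of its chosen probe set marks probes that may match other genes. The other probe set of Pcdhb15, at 4.59 and 4.68 at E18, changed by -0.05 at P3 and 0.29 at P6. Pcdhb3 and Pcdhb5 were called at P6 only, at 0.90 and 0.61, with SE of 0.22 and 0.16. The call of Pcdhb3 was lost without E18 replicate 1 (0.138), E18 replicate 2 (0.0612) or P6 replicate 2 (0.082), and that of Pcdhb5 without E18 replicate 1 (0.245), E18 replicate 2 (0.161) or P6 replicate 1 (0.0924). The 4 tested beta genes called in neither comparison, Pcdhb2, Pcdhb7, Pcdhb8 and Pcdhb11, changed by 0.24 to 0.70 at P3 and by 0.31 to 1.42 at P6. Pcdhb7 read 7.97 and 6.14 at P3, the widest gap between the arrays of a stage among all members. Without P3 replicate 2 its P3 change was 1.62 in place of 0.70. Pcdhb8 was called at P3 without P3 replicate 1 (0.55, adjusted p = 0.0305) and Pcdhb11 at P6 without P6 replicate 2 (0.62, adjusted p = 0.0395).

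Pcdhgc4 was the clustered gene that was lower at P3. This gamma gene belongs to the C-type protocadherins, whose choice is less random than that of other clustered genes. It read 6.98 and 7.32 at E18, 6.21 and 6.19 at P3, then 6.55 and 6.89 at P6. Its arrays did not overlap between any pair of stages. It was 1.93-fold lower at P3 (limma adjusted p = 0.0101), a call lost without E18 replicate 2 (adjusted p = 0.117), and its P6 change of -0.43 was not called (adjusted p = 0.151).

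The alpha cluster was measured by 6 probe sets that each name 9 or 14 alpha genes and so belong to no single gene. They were fitted with all 45037 probe sets, of which 25.7% were called at P3 and 18.4% at P6. The 3 probe sets with 14 symbols rose at both stages. One read 7.16 and 7.36 at E18, 9.59 and 9.52 at P3 and, at P6, 9.95 and 9.73. Another read 7.45 and 7.53, then 10.56 and 9.83, then 10.31 and 10.94. The last read 8.21 and 8.39 at E18 and at least 10.47 on the 4 later arrays. No later array came near the E18 values. Their changes from E18 to P3, in that order, were 2.30, 2.71 and 2.44, with adjusted p of 0.000774, 0.00215 and 0.00145 in limma. Of the 3 with 9 symbols, 0 were called at P3 and 2 were higher at P6.

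**Figure D4:**
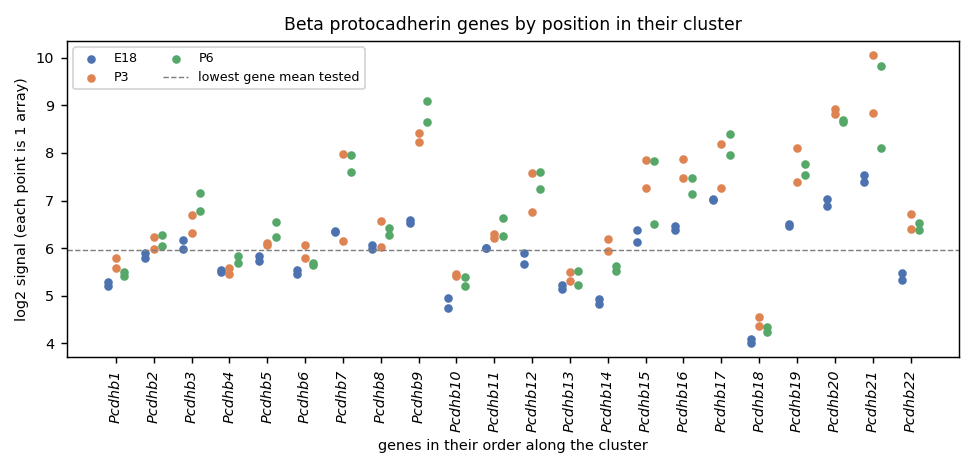
Log2 signal of the 22 beta protocadherin genes on each array, in their order along the cluster on chromosome 18. The dashed line is the lowest gene mean tested, 5.97. In Pcdhb9 the lowest later array, 8.23, is far above the higher E18 array, 6.58, and in Pcdhb20 these are 8.64 and 7.02.

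Along the beta cluster, changes were larger toward its end. Over the 22 genes, Spearman's correlation between rank along the cluster and change was 0.57 at P3 and 0.47 at P6. Between mean level over all arrays and change it was larger, 0.69 at P3 and 0.84 at P6, and between rank and level it was 0.40. That level includes the later arrays, so a rise itself adds to it. The first 11 genes had a median change of 0.42 at P3 and 0.43 at P6, and the last 11 had medians of 1.25 and 1.05. Without the filter, 3 of the first 11 and 9 of the last 11 were called higher at P3, and 3 and 7 at P6. The first 11 genes also read nearer the lowest gene mean tested, 5.97, with a median of 6.09 over all arrays against 7.0 for the last 11, and the part of this in the order was not tested. These are descriptions across 22 genes that share the same 6 arrays.

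Between P3 and P6, 0 members were called in either direction by limma, and 0% of all genes higher, lower or in either direction. At an unadjusted limma p under 0.05 there were 5 of the 42 tested members, and 2696 of all 13645 genes tested. The 4 members with the smallest p among rises were Cdh22, Pcdhgc4, Pcdhb9 and Pcdhb3, with differences of 1.11, 0.52, 0.55 and 0.47. Among falls they were Cdh8, Cdh17, Cdh6 and Cdh2, with differences of -1.21, -0.51, -0.68 and -0.58. Those of Cdh2, Pcdhb9 and Pcdhb3 did not reach an unadjusted p of 0.05. Without P3 replicate 1 the count of members called went from 0 to 4 higher and 4 lower, and 28.7% of all genes were then called, 3330 higher and 592 lower. The members were Cdh13, Pcdhb7, Pcdhb17 and Pcdh19 upward, and Pcdh1, Cdh16, Cdh17 and Cdh7 downward.

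The intervals from E18 to P3 and from P3 to P6 were also compared with each other. The contrast of the second interval minus the first called 7 members lower and 1 higher, against 5.28% and 16.7% of all genes. A value below 0 means that the change from P3 to P6 was less upward than that from E18 to P3. The 7 were Cdh2, Cdh9, Cdh11, Cdh15, Pcdhb16, Pcdhb20 and Pcdhb22, and the 1 was Pcdhgc4. The P3 arrays enter both intervals with opposite sign, so a deviation there moves this contrast more than one at E18 or P6.

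Several probe sets of a gene could be compared for 11 of the 20 members called at P3, and in 7 of them all probe sets moved the same way. At P6 this held for 7 of 9. The mixed genes were Cdh2, Cdh4, Pcdh18 and Pcdhb15 at P3 and Cdh4 and Cdh10 at P6.

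**Figure D5:**
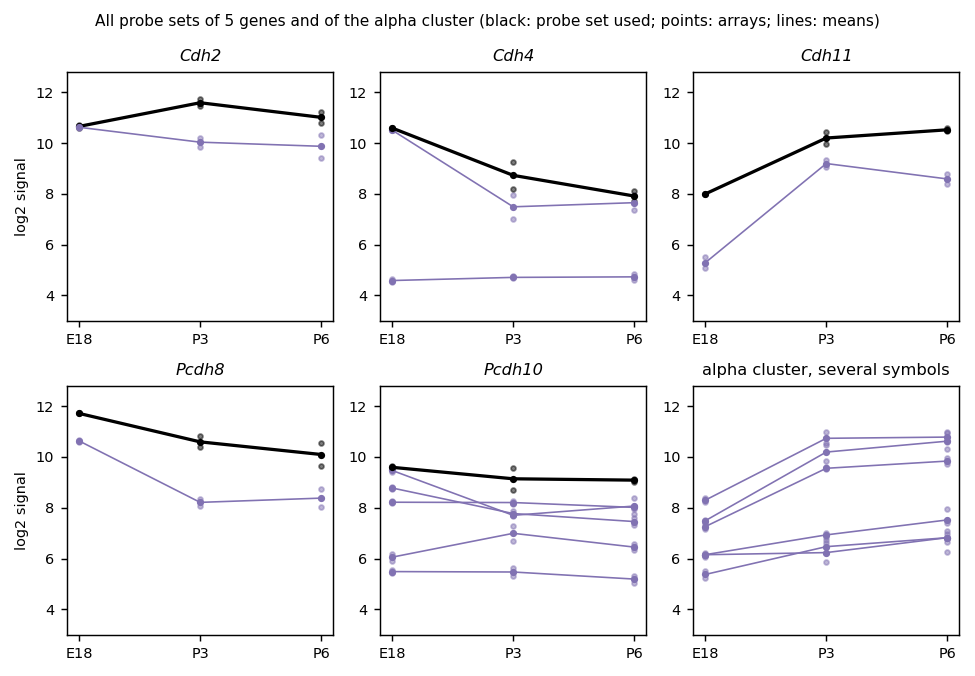
Log2 signal of every probe set of 5 genes, and of the 6 alpha probe sets that carry several symbols, at each stage. Points are arrays, lines join stage means, and the probe set used for a gene is black. The 2 probe sets of Cdh2 part after E18. Those of Cdh11 both lie above E18 at P3 and P6 and those of Pcdh8 below, but in each gene they differ in direction from P3 to P6. Those of Pcdh10 range from -1.77 to 0.94 between E18 and P3.

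Genes that work with cadherins were described from lists made for this tissue, with no test of a list. The shares to read the counts against are those of all genes tested, 15.5% higher and 25.7% lower at P3 and 14.8% and 16.9% at P6. Of 13 tested catenins and adherens junction linkers, 1 was higher and 6 lower at P3 and 2 were higher and 5 lower at P6, with a median of -0.42 at P3. The lower genes made up 46.2% of the list at P3 and 38.5% at P6. Ctnna1 (alpha-E-catenin, which ties cadherins to actin) was 7.48-fold lower at P3 (limma adjusted p = 0.000405), Vcl (vinculin) was 6.04-fold lower (0.000162) and Magi1 (a junction scaffold) was 5.78-fold lower (0.000995). The neuronal catenin Ctnnd2 was the 1 gene higher at P3, by 1.25, and beta-catenin (Ctnnb1) changed by -0.42 and was not called. The proliferation and progenitor markers moved with these falls, and their part in them was not tested.

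Of the 8 tested WAVE complex genes, 2 were higher and 1 lower at both later stages, shares of 25% and 12.5%. Wasf1, the WAVE protein known from brain, was 4.44-fold higher at P3 and Abi2 2.37-fold higher, and Wasf2 was 6.79-fold lower (limma adjusted p = 0.000573, 0.00439 and 0.00164). Of 3 kinases of protocadherin signalling, Ptk2b (PYK2, which clustered protocadherins inhibit) was 11.1-fold higher at P3 and 19.6-fold higher at P6. Its adjusted p-values in limma were 6.32e-05 and 2.7e-05. Taok2 changed by -1.14 at P3 and Fyn by -0.76, both called.

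Of 13 genes for promoter choice at the protocadherin clusters, 0 were higher and 9 lower (69.2%) at P3, and 0 were higher and 8 lower (61.5%) at P6. These are cohesin subunits and loaders, chromatin modifiers and CTCF, which loops chosen promoters to enhancers. Stag2 was 2.81-fold lower, Smc1a 2.75-fold and Stag1 2.08-fold (limma adjusted p = 0.00644, 0.00561 and 0.00958), and Ctcf changed by -0.76 and was not called (adjusted p = 0.166). Cohesin genes also serve dividing cells, and the proliferation list fell between the same arrays, whose part in this was not tested. Of 7 genes of cadherin processing, 0 were higher and 2 lower at P3, a share of 28.6% lower, near that of all genes. Adam17 was 3.02-fold lower and Psenen 2.91-fold lower (limma adjusted p = 0.00715 and 0.0146), and Adam10, the main sheddase of N-cadherin, changed by 0.55 and was not called (adjusted p = 0.0867). Of 12 other tested genes of the cadherin superfamily, 1 was higher and 2 lower at P3, and 3 were higher and 1 lower at P6. At P3 both shares, 8.33% and 16.7%, lay below those of all genes. Fat1, a giant cadherin of radial glia, was 12.7-fold lower at P3 and Dchs1 4.43-fold lower, while the synaptic calsyntenin Clstn2 was 2.65-fold higher (limma adjusted p = 0.000874, 0.005 and 0.013).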

How the data were processed

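The deposited values are log2 signals. The authors computed them with RMA, per the submitters' processing notes, which corrects background, normalizes and summarises probes. Neither its version nor whether it saw all arrays at once is given in the sources used here. Precision is limited by the number of arrays.

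Gene symbols came from the array's platform annotation. Among 45101 probe sets, 34945 had a single symbol, 932 several and 9160 none, and 64 were controls. The Entrez IDs of 34741 were found in RefSeq, and 0 symbols changed.

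A gene was represented by its brightest probe set, by mean over the 6 arrays. After the dimmest 25% of genes were dropped, a linear model with a mean per stage was fitted with limma 3.58.1 in R 4.3.3, with empirical Bayes moderation and an intensity trend (3 residual degrees of freedom, 2-sided). Benjamini-Hochberg adjustment ran over the 13645 genes of each contrast. Errors are SE of this fit. Probe sets named in the text were read from a fit of all probe sets. The fit was tested on simulated data.

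The members, classes, partner lists and marker lists were chosen with earlier results of these data known. Named with every array's value were 14 set cadherins and protocadherins and, per class, up to 4 called members with the largest rise and fall whose arrays did not overlap; from P3 to P6, up to 4 in each direction with the smallest p; of each partner list, up to 3 with the smallest p, plus Ctnnd2, Ctnnb1, Ctcf and Adam10, which were chosen after their values were seen. Alternatives changed the filter, normalization, probe set, samples, weights, moderation, covariates and replicates, and 1 was added after the data were seen. Promoters came from RefSeq (GRCm38.p6).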

Additional observations from a re-analysis of the deposited data

Results flagged for a closer look

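The change from P3 to P6 differed from the change from E18 to P3 in 8 members, by limma's test of the difference of intervals (adjusted p under 0.05). The difference was -3.66 for Cdh9, which rose by 3.98 in the first interval and by 0.32 in the second, on the log2 scale. It was -1.88 for Cdh11, -1.34 for Cdh15 and -1.51 for Cdh2. Among beta protocadherins it was -2.12 for Pcdhb20, -1.62 for Pcdhb16 and -1.24 for Pcdhb22. It was 1.47 for Pcdhgc4, which was lower at P3 and rose again by 0.52, a rise that was not called by itself (adjusted p = 0.226 in limma). That of Cdh2 holds for the probe set used, and its other probe set moved the other way in the first interval.

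Signal outside the single-gene probe sets came from the alpha protocadherin cluster. From E18 to P6, 5 of the 6 alpha probe sets with several symbols were called higher. Their changes were 2.49, 2.58 and 3.13 for the 3 probe sets with 14 symbols and 1.37 and 1.45 for 2 of those with 9.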

How the results depend on the processing

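Of the 20 members called from E18 to P3, 19 kept their direction and 7 their call under every alternative in which they were tested. From E18 to P6, 20 of 20 kept their direction and 11 their call. Cdh9, Cdh11, Cdh15, Pcdhb9, Pcdhb20 and Pcdhb22 kept both calls. The exception in direction was Cdh2, which changed by -0.59 from E18 to P3 when the probe set with the largest variance was read. With the E18 arrays averaged into 1, the members called were 8 higher and 1 lower at P3, 10 higher and 2 lower at P6, and 11 by the F-test. With the hybridization control signal as a covariate they were 10 higher and 2 lower at P3 and 10 by the F-test. With the lowest 50% of gene means left out, where fewer members are tested, they were 10 higher at P3, 8 higher at P6 and 12 by the F-test. All genes moved alongside: 41.3% were called at P3 and 31.7% at P6 in the reported fit, but 18% and 17.3% with E18 averaged, and 16.8% and 18.3% with the covariate. Fitting only the stages compared gave 7 lower at P6, where 45.2% of all genes were called, and array weights gave 29 by the F-test. Apart from the smaller number tested, the cause of these differences was not tested. Leaving out each array in turn gave 8 to 17 higher and 1 to 6 lower at P3, 10 to 20 higher and 2 to 7 lower at P6, 0 to 4 higher and 0 to 4 lower from P3 to P6, and 10 to 31 by the F-test. The share of all genes called at P3 then ran from 17.6% to 57.7%, so these counts say nothing about the members in particular. Reading the chosen probe sets from a fit of all probe sets, an alternative chosen after seeing the data, gave 16 higher and 3 lower at P3 over all 56 members, 4 of them not tested otherwise. Of the 20 members called at P3, 15 stayed called, and Cdh16, Pcdh7, Pcdh8, Pcdhb15 and Pcdhb21 did not. For the replicate numbers, the deviation of each array from its stage mean was compared between stages. These deviations, not the signals, correlated between same-numbered arrays at -0.17 (E18 and P3), 0.06 (E18 and P6) and -0.24 (P3 and P6). With 2 arrays per stage the deviations are equal and opposite, so the numbering alone sets the sign. Whether same-numbered arrays belong together was not tested. With the replicate block the counts were 18 higher and 4 lower at P3, 17 and 4 at P6, and 22 by the F-test. Values near 5 to 6 on the log2 scale lie close to the array floor, so their folds are compressed.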
